A study of Homo sapiens with 4 samples.

Results

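The genes described here are the numbered zinc finger genes, those named ZNF with a number, that were well expressed in UMSCC74B cells, a head and neck squamous cell carcinoma (HNSCC) line. The genes were selected on their counts: a gene was taken when its raw estimated count was at least 300 in each of the 4 RNA-seq libraries, entries with the same name being summed and ZNF473 being left out. This gave 233 genes of 528 numbered names and of 29655 gene names in all. The 2 control libraries came from wild-type cells given control shRNA, and the 2 other libraries came from cells given shRNA against PRMT5, the arginine methyltransferase that the study silenced (PRMT5 KD). All cells were collected after 72 h. The sample labels describe plasmid transfection whereas the methods describe lentiviral particles. Neither says that the replicates were separate cultures, so p-values here measure the spread between these libraries, which may be technical.

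Most ZNF proteins carry tandem C2H2 fingers, short loops in which a pair of cysteines and a pair of histidines hold a zinc ion, and neighbouring fingers together read a stretch of DNA. Many also carry a KRAB domain, which binds the corepressor TRIM28 (KAP1) and through it the H3K9 methyltransferase SETDB1 and HP1 proteins, and are known for silencing transposable elements. Others lack KRAB and act as activators, as adaptors for other corepressors, or on RNA and ribosomes. The KRAB genes arose by repeated duplication and lie largely in clusters on chromosome 19.

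PRMT5 itself was measured first, as a check of the labels. Levels are given as CPM, which here means counts relative to the library's total over the protein-coding genes tested, after TMM scaling. In control replicates 1 and 2 the PRMT5 level was 94.3 and 84.3 CPM, and in those labelled PRMT5 KD it was 132 and 150 CPM. The transcript was therefore higher, not lower, under the KD label (log2 fold change 0.66, SE 0.12, adjusted p = 0.00546 in edgeR's quasi-likelihood test with Benjamini-Hochberg adjustment). The paper reports that an immunoblot showed silencing by the PRMT5 shRNA at the protein level, which these libraries do not measure. Without control replicate 2 the value was 0.58 with an adjusted p of 0.0675. Every direction given here is that of the libraries labelled PRMT5 KD against control.

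Totals per library were 52185289 and 65964558 counts for control, then 64233361 and 55328869 for PRMT5 KD. Ribosomal RNA took 15.3% and 14.2% of the counts in control, and 26.2% and 18.0% under the KD label. Of 7 squamous epithelial markers, KRT5, KRT14, KRT17, CDH1 and EPCAM were at or near 0 in every library, with at most 1.49 CPM. At these low levels KRT17 had 0.13 and 0.12 CPM in control and 1.11 and 1.49 CPM under the KD label. KRT14 had 0 CPM in control and 0.23 and 0.46 CPM under the KD label, while the groups overlapped for CDH1 and EPCAM. These genes were too low to be tested. DSG3 had 43.1 and 36.4 CPM in control and 18.8 and 25.4 CPM under the KD label. TP63 had 5.51 and 6.60 CPM in control and 1.74 and 3.01 CPM under the KD label. The summed level of the list, most of it DSG3, was 43.8 to 49.9 CPM in control and 22.7 to 31.6 CPM under the KD label. Of 4 markers of other cells, PTPRC and ALB were near 0, whereas COL1A1 and PECAM1 were lower under the KD label, and the summed level of these 4 fell from between 89.1 and 106 CPM to between 19.99 and 26.5 CPM. The part of these shifts in the results on zinc finger genes was not tested. In bulk libraries, fewer cells of a type and less RNA per cell cannot be told apart.

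Of the 233 genes, 229 were protein-coding, and all 229 passed the filter on low values and were tested among 11895 genes. The count minimum in every library chose the genes, so their levels are a description. It also kept out genes that lay low in either group and so limits the size of the changes that can be seen. The genes just inside it were ZNF79, with a lowest count of 300.999, ZNF785 with 301 and ZNF670 with 302. Just outside were ZNF468, with a lowest count of 298.04, ZNF284 with 298 and ZNF792 with 293. For ZNF468 the control counts were 298.04 and 299, against 661 and 604 under the KD label. The 4 genes without a protein-coding match were ZNF252P, ZNF271, ZNF720 and ZNF767. In the fit on all gene names, ZNF767 was lower, from 705 and 824 counts to 384 and 518 (log2 fold change -0.74, adjusted p = 0.00542), and for the other 3 the log2 fold change lay between -0.29 and 0.29 with adjusted p from 0.171 to 0.408.

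The protein sequences encoded by the 229 genes held a median of 9 C2H2 fingers, with a maximum of 36 in ZNF142. A KRAB match was found in 122 of the genes and a SCAN match, a dimerization domain, in 16. ZNF259, another name of ZPR1, is no C2H2 protein despite its number and had no finger by the pattern used. To show the unit that defines the family, the first finger is printed for the KRAB gene and for the gene without KRAB with the largest called rise and the largest called fall. Each is coding sequence read 5′ to 3′ from GRCh38, with the codons of the zinc-binding cysteines and histidines in capitals.
ZNF92, KRAB, the largest rise, exon of chr7:65398721-65398783, plus strand: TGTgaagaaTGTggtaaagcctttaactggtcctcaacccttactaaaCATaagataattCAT
ZNF785, KRAB, the largest fall, exon of chr16:30583196-30583258, minus strand: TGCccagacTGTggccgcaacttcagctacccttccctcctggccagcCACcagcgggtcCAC
ZNF787, no KRAB, the largest rise, exon of chr19:56088908-56088970, minus strand: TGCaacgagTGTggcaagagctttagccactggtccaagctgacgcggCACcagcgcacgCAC
ZNF385D, no KRAB, the largest fall, exon of chr3:22168866-22168934, minus strand: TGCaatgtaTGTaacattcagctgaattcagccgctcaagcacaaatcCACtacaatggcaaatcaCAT
The first 3 fingers have the same spacing over 63 bases, and their pairwise identity was 49.2% for ZNF92 and ZNF785, 52.4% for ZNF92 and ZNF787 and 61.9% for ZNF785 and ZNF787. The finger of ZNF385D is 69 bases long, with 5 residues between the histidines in place of 3. ZNF92 has 11 fingers, ZNF785 and ZNF787 have 7 each and ZNF385D has 4.

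Among the 229 tested genes, 43 were called higher and 30 lower under the PRMT5 KD label, at an adjusted p under 0.05 and a log2 fold change of at least 0.5 in either direction. The other 156 were not called. These counts correspond to 18.8% higher and 13.1% lower, beside 21.2% and 24.3% of all 11895 genes tested, and beside 20.4% and 21.7% of the 9552 tested genes with 300 counts in every library. The median log2 fold change of the zinc finger genes was 0.08, with 135 values above 0 and 94 below, against a median of -0.01 over all genes tested and 0.01 over those with 300 counts. Most changes were small. The middle 50% of values ran from -0.19 to 0.39 and their SD was 0.50, against an SD of 0.78 over the genes with 300 counts, and only 7 called rises and 4 called falls exceeded 1 on the log2 scale. The groups did not overlap in 103 genes that were higher and 66 that were lower, beside 39.9% and 40.6% of all genes tested. Summed over the 229 genes, the level was 8152 and 7646 CPM in control and 8144 and 8149 CPM under the KD label after TMM scaling. As a share of the unscaled protein-coding counts, all 233 genes took 0.776% and 0.719% in control and 0.850% and 0.892% under the KD label, so the share was higher in both KD-labelled libraries while the scaled level was not.

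The split between rises and falls changed with the scaling and with a joint correction for exon length and GC content. With total counts alone in place of TMM factors, 68 genes were called higher and 11 lower, and that scaling moved the median of all genes to 0.17. After that correction, 60 were called higher and 15 lower, beside 24.1% and 21% of all genes tested, with a median of 0.17 against 0.06 for all genes.

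**Figure D1:**
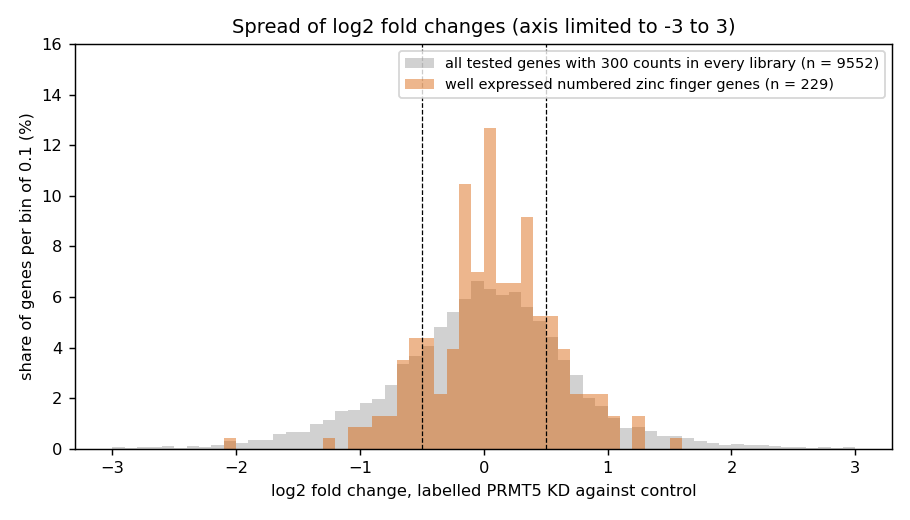
The plot of log2 fold changes (horizontal axis, the libraries labelled PRMT5 KD against control, in bins of 0.1) gives the share of genes per bin in percent for the 229 zinc finger genes (orange) and for the 9552 tested genes with 300 counts in every library (grey). The orange values are narrower, with an SD of 0.50 against 0.78, and dashed lines mark the threshold of 0.5 in either direction.

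Transcript length was compared because direction moved with it across the whole table. Over the 229 zinc finger genes, log2 fold change and log2 exon length had a Spearman's rho of -0.18 and a Pearson's r of -0.16, and over all 11895 genes a rho of -0.21 and an r of -0.19. Against the longest annotated transcript in place of exon length, the rho of the zinc finger genes was -0.12 and that of all genes -0.21. Over the 9552 genes with 300 counts, the rho with exon length was -0.26. These are descriptions across genes of the same 4 libraries, and genes are not independent replicates. The median exon length was 5623 bases for the genes called higher, 7805 bases for those called lower and 6168 bases for those not called. Among 56 zinc finger genes with 4567 bases of exons or fewer, 15 were called higher and 5 lower (26.8% and 8.93%, beside 27.9% and 18.1% of all tested genes of that length), with a median of 0.16 against 0.15. The 100 genes between 4568 and 7419 bases gave 19 higher and 9 lower (19% and 9%, beside 21.3% and 23.9%), with a median of 0.10 against -0.00. Of the 73 genes from 7420 bases on, 9 were higher and 16 lower (12.3% and 21.9%, beside 12.1% and 33.1%), with a median of -0.09 against -0.21. The share called higher was close to that of all genes in each range, and the share called lower was below it in each range; these differences were not tested. After the length and GC correction the rho of the zinc finger genes was 0.04. Their medians in the same 3 length ranges were then 0.21, 0.16 and 0.17, against 0.04, 0.06 and 0.07 for all genes. With the number of fingers the rho was -0.01, and with GC content it was 0.03.

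**Figure D2:**
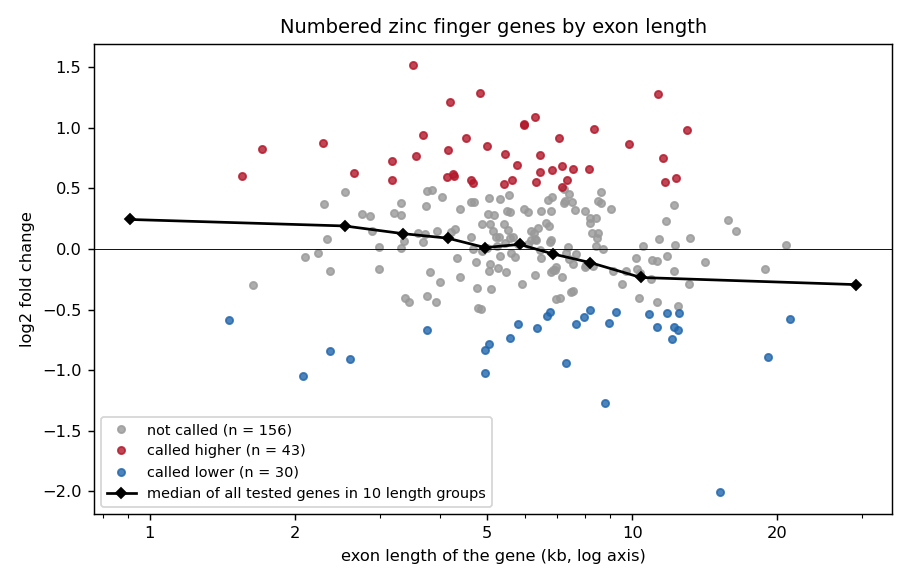
Each point is 1 of the 229 tested zinc finger genes, with exon length in kb on a log axis and the log2 fold change of the libraries labelled PRMT5 KD against control, coloured by call (43 higher, 30 lower, 156 not called). The black line joins the medians of all tested genes in 10 length groups and falls from short to long genes, and the zinc finger genes scatter about it.

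The largest rise was that of ZNF92, a KRAB gene of the primate-expanded group on the long arm of chromosome 7 (chr7:65373799-65401136). Its level was 7.76 and 7.80 CPM in control and 17.3 and 27.2 CPM under the KD label (log2 fold change 1.52, SE 0.23, adjusted p = 0.00282). The control libraries were nearly identical and both KD-labelled libraries lay above them, though far from each other. ZNF107, a KRAB gene close by (chr7:64666099-64711577), had 18.98 and 11.5 CPM in control and 26.8 and 47.0 CPM under the KD label (log2 fold change 1.28, SE 0.36, adjusted p = 0.0345). Its replicates spread widely in both groups, and without KD replicate 2 its log2 fold change was 0.82 and no longer called. ZNF480, in the KRAB cluster of chromosome 19, had 10.7 and 8.90 CPM in control and 25.3 and 22.6 CPM under the KD label (log2 fold change 1.29, SE 0.16, adjusted p = 0.00114). Here the gap between the groups was wide against the spread of the replicates.

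ZNF670 on chromosome 1 rose from 7.63 and 6.80 CPM to 15.1 and 18.3 CPM (log2 fold change 1.21, adjusted p = 0.00177). Its values carry decimals, as an estimate does where reads are shared, and a readthrough transcript with ZNF695 is listed separately. ZNF267 on chromosome 16 rose from 15.03 and 18.1 CPM to 37.1 and 33.7 CPM (log2 fold change 1.09, adjusted p = 0.00158). ZNF215 on chromosome 11, which matched both KRAB and SCAN, had 9.10 and 9.60 CPM in control and 16.5 and 21.8 CPM under the KD label (log2 fold change 1.03, adjusted p = 0.00397). ZNF28 of the chromosome 19 cluster had 8.01 and 7.70 CPM in control against 17.0 and 14.8 CPM (log2 fold change 1.02, adjusted p = 0.00227), also with decimals. The groups were apart in each of these genes, and all 7 rises above 1 on the log2 scale were of genes with a KRAB match.

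ZNF274, which carries KRAB and SCAN and is known to bring SETDB1 and TRIM28 to the 3′ ends of other zinc finger genes, had 15.3 and 13.3 CPM in control and 27.6 and 29.2 CPM under the KD label. Its log2 fold change was 0.99 (SE 0.14, adjusted p = 0.00181), and the replicates lay close together in each group.

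ZNF385D, whose first finger has the wider spacing printed above, had the largest fall, from 81.1 and 98.9 CPM in control to 22.8 and 21.9 CPM under the KD label (log2 fold change -2.01, SE 0.14, adjusted p = 0.000292). It spans chr3:21412218-22373321 and carries 15214 bases of exons. With the length and GC correction its log2 fold change was -1.66, and every library of the one group stood far from every library of the other. ZNF516, which binds the corepressor CtBP, fell from 81.3 and 86.5 CPM to 37.5 and 32.0 CPM (log2 fold change -1.27, SE 0.13, adjusted p = 0.000619). ZNF358, a short gene with 2083 bases of exons, fell against the length trend, from 28.4 and 33.2 CPM to 15.5 and 14.3 CPM (log2 fold change -1.05, adjusted p = 0.00162). None of these 3 genes had a KRAB match.

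ZNF785 was the only KRAB gene with a called fall beyond 1 on the log2 scale, from 13.8 and 13.1 CPM to 6.33 and 6.92 CPM (log2 fold change -1.02, SE 0.15, adjusted p = 0.00232). It lies at chr16:30573740-30585769, and the next of the 229 genes along the chromosome, ZNF689 at chr16:30602558-30624012, moved the other way. ZNF689 rose from 14.8 and 14.9 CPM to 24.9 and 27.4 CPM (log2 fold change 0.82, adjusted p = 0.00289), although its counts carry decimals. ZNF248, a KRAB gene on chromosome 10, fell from 21.5 and 20.9 CPM to 9.86 and 12.2 CPM (log2 fold change -0.95, adjusted p = 0.00333). The fall of ZNF580, a gene with 3 fingers, was from 31.0 and 31.1 CPM to 17.3 and 15.7 CPM (log2 fold change -0.91, adjusted p = 0.00179), with decimals in its counts. ZNF827, which recruits the NuRD complex to telomeres, fell from 42.6 and 36.1 CPM to 22.0 and 20.4 CPM (log2 fold change -0.89, adjusted p = 0.00256). With 19123 bases of exons it is long, and it was no longer called after the length and GC correction (-0.46). ZNF513, with 2370 bases, fell from 23.9 and 24.97 CPM to 13.4 and 13.9 CPM (log2 fold change -0.84, adjusted p = 0.00245).

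**Figure D3:**
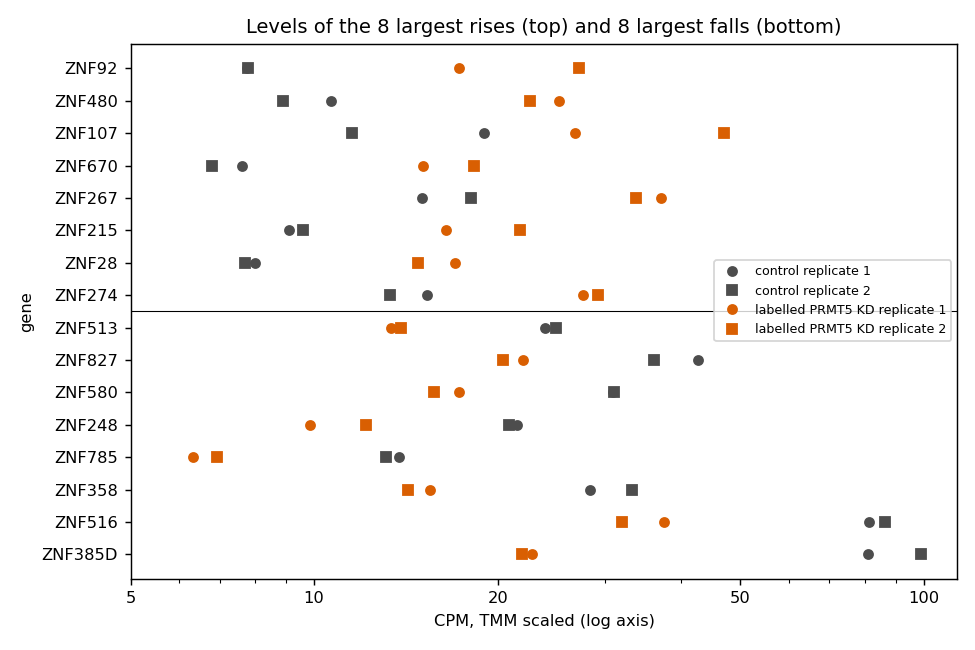
For the 8 largest called rises (upper rows) and the 8 largest called falls (lower rows), the level of each gene in CPM (TMM scaled, log axis) is plotted per library, control in grey and the libraries labelled PRMT5 KD in orange, replicate 1 as circles and replicate 2 as squares. The groups do not overlap in any of the 16 genes, the gap being widest for ZNF385D, at 81.1 and 98.9 CPM against 22.8 and 21.9 CPM, and the replicates most spread for ZNF107.

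By domain, 25 of the 122 genes with a KRAB match were called higher and 12 lower, with a median of 0.08. These were 20.5% and 9.84%, beside 21.2% and 24.3% of all genes tested. Of the 107 without a match, 18 were higher and 18 lower (16.8% and 16.8%), also with a median of 0.08. The difference between these classes was not tested. After the length and GC correction the counts were 33 higher and 6 lower with KRAB and 27 higher and 9 lower without. Over all genes tested, 24.1% were then called higher and 21% lower. The 16 SCAN genes gave 3 rises, of ZNF215, ZNF274 and ZNF444, and no fall (log2 fold changes from -0.32 to 1.03). Among genes with 1 to 5 fingers 9 of 53 were called higher and 4 lower, and among those with 6 to 10 fingers 16 and 14 of 73. Those with 11 to 15 fingers gave 12 and 7 of 58, those with more than 15 gave 5 and 4 of 39. The 6 genes with 0 fingers gave 1 and 1. Over these classes the share called higher ran from 12.8% to 21.9% and the share called lower from 7.55% to 19.2%.

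The partners of KRAB proteins were read from a list of 19 corepressor genes, all tested, of which 7 were called higher and 3 lower (36.8% and 15.8%, beside 21.2% and 24.3% of all genes tested). TRIM28, the scaffold that KRAB domains bind, had 313 and 278 CPM in control and 556 and 587 CPM under the KD label (log2 fold change 0.95, SE 0.13, adjusted p = 0.00183). SETDB1, its methyltransferase partner, had a log2 fold change of -0.01 (adjusted p = 0.934). The largest rise of the list was that of UHRF1, a factor of maintenance DNA methylation, from 33.3 and 29.2 CPM to 118 and 122 CPM (log2 fold change 1.94, adjusted p = 0.00024), and DNMT1, which it recruits, rose by 1.06. The HP1 genes moved apart, CBX1 (0.72) and CBX3 (0.58) being higher and CBX5 (-1.01) lower. HDAC2, a histone deacetylase, rose by 0.63, and TASOR, a subunit of the HUSH silencing complex, had a log2 fold change of -0.58 (adjusted p = 0.00701). With the length and GC correction TASOR was at -0.37, short of the fold threshold. CHD3, a NuRD remodeller, had the largest fall, from 248 and 268 CPM to 109 and 95.5 CPM (log2 fold change -1.34, adjusted p = 0.000527). ZNF274 is on this list too and is counted in both. After the length and GC correction the list gave 8 higher and 2 lower, beside 24.1% and 21% of all genes tested.

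Chromosome 19 held 76 of the 229 genes, of which 23 were called higher and 9 lower, with a median of 0.18. These were 30.3% and 11.8%, beside 21.2% and 24.3% of all genes tested. On the other chromosomes 20 of 153 were higher and 21 lower, with a median of 0.07. Genes of chromosome 19 other than zinc finger genes with a number were also more often higher, 25.3% of 643 against 18.4% lower, with a median of 0.12. After the length and GC correction, 25 of the 76 genes were called higher and 2 lower, the falls being those of ZNF358 and ZNF580. On the other chromosomes 35 of 153 were then higher and 13 lower, beside 24.1% and 21% of all genes tested. When the 76 genes were parted at gaps of more than 1 Mb, they fell into 12 clusters, 2 of them single genes. Differences between clusters were not tested, and the counts by cluster are to be read beside 21.2% higher and 24.3% lower over all genes tested.

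The cluster from ZNF175 to ZNF765 (chr19:51571283-53430413) held 11 genes, all with a KRAB match. Of these 7 were called higher, ZNF614, ZNF766, ZNF480, ZNF611, ZNF28, ZNF845 and ZNF765, and their neighbour ZNF83 lower, with a median of 0.57. ZNF845, with 26 fingers, had 9.80 and 8.82 CPM in control and 15.95 and 15.94 CPM under the KD label (log2 fold change 0.78, adjusted p = 0.00509). In the middle of the run, ZNF83 had 17.8 and 18.2 CPM in control and 12.3 and 12.1 CPM under the KD label (log2 fold change -0.56, adjusted p = 0.0126). ZNF83 was not called after the length and GC correction. The counts of ZNF28, ZNF83, ZNF611 and ZNF845 carry decimals. Near-identical neighbours can share reads, so single values within the cluster are less certain than those of isolated genes.

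Towards the chromosome end, the cluster from ZNF264 to ZNF446 (chr19:57191500-58481230) held 22 genes, 21 of them with KRAB. It gave 2 rises, of ZNF776 (log2 fold change 0.79) and ZNF274, and 2 falls, of ZNF264 (-0.53) and ZNF584 (-0.62), with a median of -0.03. After the length and GC correction neither fall was called, ZNF264 being at -0.23, and the median of the cluster was 0.05. Between the clusters from ZNF175 and from ZNF264 lay 7 genes without KRAB (chr19:55476617-56160893), with rises of ZNF628, ZNF787 and ZNF444 and falls of ZNF865 and ZNF580. After the length and GC correction ZNF580 was still called lower and ZNF865 was not. ZNF787, the gene without KRAB that rose most, had 32.9 and 27.8 CPM in control and 62.1 and 54.3 CPM under the KD label (log2 fold change 0.94, SE 0.14, adjusted p = 0.00223). At the other end of the chromosome, the 11 genes from ZNF557 to ZNF562 (chr19:7069703-9675100) held 4 rises and 3 falls, with a median of 0.40. ZNF562, which closes that cluster, had 47.0 and 40.6 CPM in control and 86.8 and 86.1 CPM under the KD label (log2 fold change 0.98, adjusted p = 0.00116). ZNF557 opens it, with 11.8 and 10.7 CPM in control and 18.1 CPM in both libraries under the KD label (log2 fold change 0.69, adjusted p = 0.00689).

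**Figure D4:**
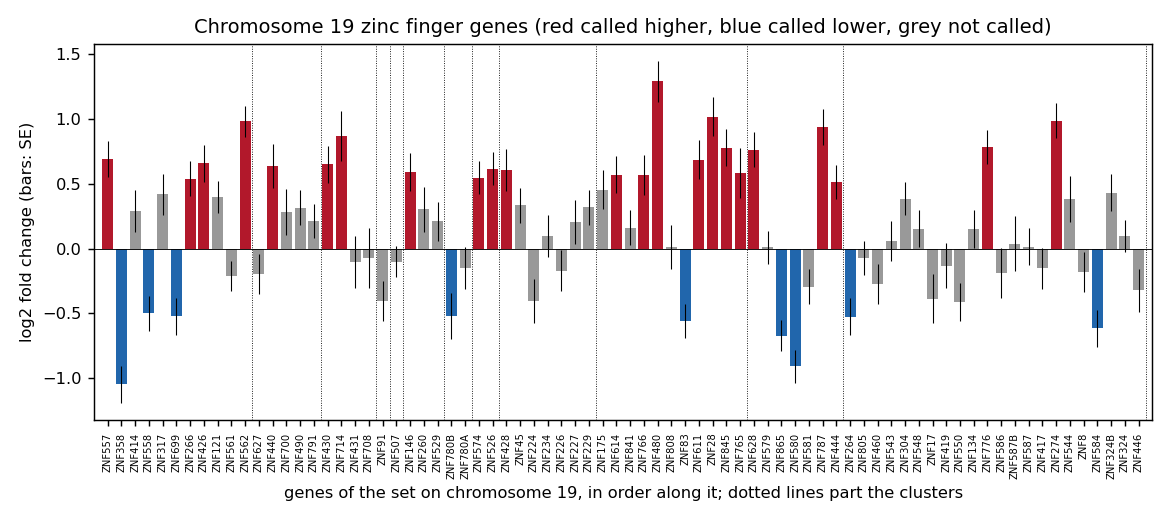
Log2 fold changes of the 76 tested zinc finger genes of chromosome 19, in order along it, with the standard error as a line on each bar, red where called higher, blue where called lower and grey where not called. Dotted lines part the 12 clusters, and the values are those without the length and GC correction. The cluster from ZNF175 to ZNF765 holds 7 red bars and 1 blue, while the last cluster holds 2 of each among 22 genes.

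Outside chromosome 19 the genes were more scattered. Chromosome 16 held 21, with rises of ZNF267 and ZNF689 and a fall of ZNF785. Chromosome 7 held 16, of which 4 were called higher and 0 lower, where 21.2% and 24.3% of all genes tested were. Beside ZNF92 and ZNF107, the other two lie near the end of the long arm and carry KRAB. ZNF212 had 16.9 and 15.5 CPM in control and 23.6 and 24.4 CPM under the KD label (log2 fold change 0.57, adjusted p = 0.0109). ZNF777 had 18.95 and 17.4 CPM in control and 30.2 and 29.9 CPM under the KD label (log2 fold change 0.73, adjusted p = 0.00390).

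Levels are compared between genes only per kilobase of exon (RPKM). The mean RPKM of the 229 genes ran from 0.813 to 31.0, with a median of 3.68. The highest was ZNF460, a KRAB gene, at 38.7 and 29.3 RPKM in control and 29.1 and 27.1 under the KD label. ZNF770 followed, at 25.4 and 23.0 in control and 26.6 and 23.5 under the KD label, and then ZNF217, an oncogene product that works with CtBP, at 23.5 and 23.7 in control and 27.5 and 22.2 under the KD label. The values of ZNF770 and ZNF217 overlapped, so their order is not settled by these libraries. ZNF622 had 13.5 RPKM in both control libraries and 26.4 and 21.5 under the KD label, and ZNF24, a SCAN gene without KRAB, had 16.5 and 17.4 in control and 18.1 and 18.9 under the KD label. Of these 5 genes ZNF622 was called. For ZNF460, ZNF770, ZNF217 and ZNF24 the log2 fold changes were -0.27, 0.05, 0.07 and 0.13, with adjusted p from 0.175 to 0.755.

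By reads rather than by level per length, the leading genes were long and lacked KRAB. ZNF638, an RNA-binding nuclear protein linked to silencing of unintegrated retroviral DNA, had 246 CPM in both control libraries and 174 and 180 CPM under the KD label. Its log2 fold change of -0.47 (SE 0.11, adjusted p = 0.0115) missed the fold threshold although the groups were well apart. With the length and GC correction the log2 fold change of ZNF638 was -0.18, and its adjusted p was 0.211. ZNF207, the spindle checkpoint protein BuGZ, had 206 and 163 CPM in control and 227 and 209 CPM under the KD label, with the groups barely apart (log2 fold change 0.24, adjusted p = 0.205). ZNF462 had 194 and 149 CPM against 257 and 183 CPM, with overlapping groups (adjusted p = 0.191), and ZNF532 had 166 and 154 CPM against 207 and 170 CPM (adjusted p = 0.182). After the length and GC correction the log2 fold changes of ZNF207, ZNF462 and ZNF532 were 0.62, 0.67 and 0.53, and all 3 were called. ZNF106, an RNA-binding protein, had 192 and 190 CPM in control and 133 and 111 CPM under the KD label (log2 fold change -0.65, adjusted p = 0.00652), and was not called after that correction (-0.35).

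Among 13 genes listed for roles on RNA, ribosomes or ubiquitin, 2 were called higher and 1 lower. These were 15.4% and 7.69%, beside 21.2% and 24.3% of all genes tested. ZNF622, a maturation factor of the large ribosomal subunit, had 23.0 and 23.1 CPM in control and 45.1 and 36.7 CPM under the KD label (log2 fold change 0.83, SE 0.14, adjusted p = 0.00378). ZNF511 had 11.95 and 11.96 CPM in control and 21.2 and 22.7 CPM under the KD label (log2 fold change 0.88, adjusted p = 0.00237). The fall was that of ZNF106. ZNF598, the ubiquitin ligase that marks collided ribosomes, passed the adjusted p (0.0284) but not the fold threshold, at 0.39. After the length and GC correction its log2 fold change was 0.65. With that correction 6 of the 13 genes were called higher and 0 lower, beside 24.1% and 21% of all genes tested.

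Among 24 genes described as DNA-binding regulators without KRAB, 2 were called higher and 6 lower, that is 8.33% and 25%, the latter near the 24.3% of all genes tested. The falls were those of ZNF516 and ZNF827 and, at -0.53 to -0.62, of ZNF395, ZNF292, ZNF219 and ZNF652. ZNF292, a transcription factor with 21258 bases of exons, had 157 and 149 CPM in control and 102 and 104 CPM under the KD label (log2 fold change -0.58, adjusted p = 0.00500), and -0.14 with the length and GC correction. ZNF395 had 17.3 and 20.1 CPM in control and 12.8 and 11.6 CPM under the KD label (log2 fold change -0.62, adjusted p = 0.0139). The rises were ZNF444 and ZNF146, which consists almost wholly of fingers and had 59.2 and 46.8 CPM in control and 84.9 and 74.7 CPM under the KD label (log2 fold change 0.59, adjusted p = 0.0163). With the correction, 4 of the 24 were called higher and 2 lower. Of 11 KRAB genes with described roles 3 were called higher, ZNF274, ZNF689 and ZNF557, and 0 lower, with a median of -0.10. These were 27.3% and 0%, beside 21.2% and 24.3% of all genes tested. With the correction, 4 of the 11 were called higher and 1 lower, the fall being that of ZNF189 (-0.55).

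Related families gave a reference. The ZFP, ZSCAN, ZKSCAN and ZBTB genes, 87 by name and 67 tested, held 8 rises and 11 falls (11.9% and 16.4%) with a median of -0.04. Of all genes tested, 21.2% were called higher and 24.3% lower. Of the 295 numbered zinc finger genes under the count minimum, 127 could be tested, with a median of 0.22. Of these, 38 were called higher and 22 lower (29.9% and 17.3%). Their changes reached from -3.56 to 2.96 on the log2 scale, against -2.01 to 1.52 for the well expressed genes, whose range the minimum in every library narrows.

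The calls rested on 2 libraries per group, and leaving out control replicate 2 kept 16 of the 43 rises and 13 of the 30 falls, while leaving out control replicate 1 kept 25 and 14. No called gene changed sign under any setting tried. Of the 229 genes, 45 carried decimals in their counts, among them 10 called higher and 6 lower. These were 22.2% and 13.3%, beside 21.2% and 24.3% of all genes tested.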

How the data were processed

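RNA-seq of UMSCC74B cells was analysed for 2 control shRNA and 2 PRMT5 KD libraries, and the study's other experiments were not used. Estimated counts per gene, not normalized, were deposited by the authors as 1 table per library, and 86.0% to 86.8% of their values were exactly whole. A zinc finger gene was said to carry decimals when a count lay more than 0.01 from a whole number. The submitters' processing notes name FastQC, Trim Galore, STAR, Salmon, DESeq2 and GRCh38, whereas the methods of the paper name FeatureCounts on protein-coding genes. Names turned into dates (28) were left out. Gene models came from GENCODE release 44 (GRCh38), by symbol, RefSeq number or unique synonym.

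Rounded counts of protein-coding genes that reached 0.5 RPKM in each library of control or of KD were tested with the quasi-likelihood test of edgeR 4.0.16 in R 4.3.3 (robust, TMM, Benjamini-Hochberg over 11895 genes). RPKM used union exon length. Calls needed FDR below 0.05 and a log2 change of 0.5 or more in either direction. The procedure was also run on simulated counts in which far fewer genes changed than were called here. That run cannot check the scaling where many genes change. Fingers (C-x2-4-C-x12-H-x3-5-H) were counted in the longest coding sequence of GENCODE, KRAB was matched by at least 12 of 40 residues shared with ZNF10, and SCAN by at least 30 shared with ZNF24; domain calls are approximate. DESeq2 1.42.0, other scalings and filters, a replicate term, a length and GC correction (4-df splines) and fits lacking 1 library were the alternatives. Replicate numbers were not treated as pairs, as no source says they are (correlation of deviations -0.10).

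The genes and lists were chosen with earlier results of these data known. Named were PRMT5, the 8 largest called rises and falls, the 5 genes highest in CPM and in RPKM, the genes at the count minimum, and called genes of the role and corepressor lists. SETDB1, ZNF142, ZNF598, ZNF259, ZNF767, ZNF562, ZNF212, ZNF777 and the other genes of the chromosome 19 clusters were named after their values were seen. Counting error only sets a lower limit on the spread, and PCR copies are not independent molecules.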

Additional observations from a re-analysis of the deposited data

How the results depend on the processing

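Except for other count minimums, counts are of the 229 tested zinc finger genes, 43 called higher and 30 lower with a median log2 fold change of 0.08. Total counts alone gave 68 higher, 11 lower and a median of 0.26. All gene names in the fit gave 58 higher, 19 lower and 0.19. The length and GC correction gave 60 higher, 15 lower and 0.17, and moved the length rho from -0.18 to 0.044. With the replicate block added it gave 55, 15, 0.17 and 0.042. The median was 0.14 with filterByExpr and 0.13 with no filter. A fold threshold of 1 on the log2 scale left 7 higher and 4 lower, and 2560 of the 5417 calls over all genes. A minimum of 100 counts gave 70 higher and 43 lower of 330 tested genes, and a minimum of 1000 counts gave 9 higher and 12 lower of 80 and a median of 0.022. Leaving out 1 library at a time gave 16 to 52 higher, 13 to 30 lower, medians of 0.039 to 0.15, length rho from -0.21 to -0.16 and 3119 to 5704 calls over all genes, the lowest counts being those without control replicate 2; a lone library is then assumed to vary like the other group. The cause of these shifts was not tested.

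The replicate block, which treats equal numbers as pairs, gave 40 higher, 29 lower and 5183 calls over all genes, and the crossed pairing, added after seeing the data, gave 43, 30 and 5482. DESeq2 kept 71 of the 73 called zinc finger genes, the replicate block 69 and the length and GC correction 52. ZNF107 lost its call with the replicate block (adjusted p = 0.0599), with no filter and with all gene names. ZNF770 changed sign without control replicate 2 (-0.021) and without KD replicate 1 (-0.0053), and ZNF217 without KD replicate 1 (-0.049, the other omissions reaching 0.22). With 2 libraries per group, no permutation test could pass the threshold.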
